A study of Mus musculus with 6 samples.

Results

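The miR-34 family was examined in small RNA from extracellular vesicles that osteoblasts, the bone-forming cells, released while dying by apoptosis. Every entry of the deposited table named miR-34a, miR-34b or miR-34c, with any arm suffix, was taken, which gave 6 of 1712 entries: the 5p and the 3p arm of each of the 3 hairpins. The control group was 3 libraries from SIRT6f/f mice, which carry floxed Sirt6 alleles and no Cre. The other group was 3 libraries from Prx1cre;SIRT6f/f mice, called knockout here, in which Cre under the Prx1 enhancer deletes Sirt6, which encodes a deacetylase, in cells of the limb mesenchyme. Both groups thus carry the floxed alleles, and only the knockout carries the Cre transgene. Osteoblasts of both groups were induced to die and kept without serum for 48 h, and vesicles were pelleted at 100000 g. No label gives the age or number of the mice or ties a replicate to its own animal or culture. The p-values therefore rest on the spread between these libraries, which may be technical.

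As background, miR-34 hairpins are transcribed from separate loci, one for miR-34a and a shared one for miR-34b and miR-34c. Both loci are direct transcriptional targets of p53, the factor that links DNA damage to cell cycle arrest and apoptosis. The 5p arms are the usual guide strands and lower proteins of cell cycle entry and survival; in bone, miR-34 members are known to restrain osteoblast proliferation and differentiation and, through the Notch pathway, to affect osteoclast formation. miR-34b and miR-34c are best known from ciliated epithelium and testis, and miR-34a from most other tissues.

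The mature sequences show which arms can share targets, since bases 2 to 8 (the seed, in capitals) do most of the pairing with mRNA. They are given 5′ to 3′ from RefSeq on GRCm38.p6, where 5 of the 6 members were matched by name; miR-34c-5p is named only.
mmu-miR-34a-5p: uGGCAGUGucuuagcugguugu
mmu-miR-34b-5p: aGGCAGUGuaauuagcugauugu
mmu-miR-34b-3p: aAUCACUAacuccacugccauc
mmu-miR-34c-3p: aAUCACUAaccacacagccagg
mmu-miR-34a-3p: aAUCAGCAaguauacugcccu
miR-34a-5p and miR-34b-5p had the same seed, as did miR-34b-3p and miR-34c-3p, whereas the seed of miR-34a-3p stood alone. The seed of miR-34c-5p was not compared. How much of the miR-34a-5p seed the vesicles carried therefore cannot be read from miR-34a-5p and miR-34b-5p. Outside the family, 0 listed entries with a matched sequence had any of these seeds (1304 of 1528 annotated entries were matched). In the reference, miR-449a-5p and miR-449c-5p have the seed of miR-34a-5p, but neither was listed under that name. Other miR-449 names were not analysed here. miR-34b-3p and miR-34c-3p agreed at 17 of 22 positions, the first 10 among them, and differed by U11C, C12A, U16A, U21G and C22G (miR-34b-3p base first, positions from 1 at the 5′ end).

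On GRCm38.p6 the Mir34a hairpin lies on the plus strand of chromosome 4 (150068454 to 150068555), and its last bases overlap an exon of Gm37795, a gene model of unassigned type on the same strand. The Mir34c (51103034 to 51103110) and Mir34b (51103562 to 51103645) hairpins lie on the minus strand of chromosome 9, with 451 bases between them. Both sit inside the protein-coding gene Btg4, which is on the opposite strand, and overlap none of its exons. No label or header names the build the authors aligned to, so these positions were matched by name.

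The values are RPM, reads of an entry per 1000000 reads of all listed entries of a library. Entries that carry only a numeric ID took 47.6% ± 3.85 of the control total (SD, n = 3) and 52.8% to 62.8% of the knockout totals. Annotated miRNAs outside 6 entries that may be fragments of other RNAs, called ordinary here, took 49.8% ± 2.84 of the control total (SD, n = 3) and 30.1% to 40.8% of the knockout totals, least in knockout replicate 3. Those 6 entries took 2.67% ± 1.01 of the control total and 7.06% ± 0.60 of the knockout total (SD, n = 3 each), without overlap. Values came in steps that put the depth at 1352045 to 1838239 reads if a step is 1 read, and 3 steps were 1.63 to 2.22 RPM. Mesenchymal marker miRNAs (9 of 10 listed) summed to 132355 to 153652 RPM in control and 55717 to 100162 RPM in knockout libraries. The sum does not speak for each marker. Within it, miR-143-3p averaged 39837 RPM over the controls and 22459 RPM over the knockouts, but miR-145a-5p, named after its values were seen, 997 and 1070 RPM. The 7 epithelial markers, of the cell type known for miR-34b and miR-34c, summed to 24.5 to 25.2 and 18.5 to 34.8 RPM. Markers of other cell types were scarce, but 4 kinds of them were lower in every knockout than in every control library, as the mesenchymal sum was. Such a separation was common. It held for 19.3% of the 1114 entries tested below, and for 67.9% of the 159 ordinary ones that averaged 50 RPM or more. It was therefore not a trait of these markers alone. These shares count single entries, and whether the marker sums differ from them was not tested. The 4 listed blood markers summed to 91.0 to 132 RPM in control and 38.6 to 70.9 RPM in knockout libraries, and the 3 muscle markers to 71.0 to 85.1 and 40.3 to 57.6 RPM. The 2 endothelial markers summed to 47.9 to 63.6 and 15.2 to 26.7 RPM, and the liver marker was at 17.8 to 18.7 and 3.26 to 10.6 RPM. The neural marker was at 1.23 to 5.05 and 0 to 6.78 RPM, and no listed marker was at 0 in all libraries. The part of these shares and markers in the values of the family was not tested.

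The vesicles carried the chromosome 9 pair and almost no miR-34a. Mir34b and Mir34c together gave 99.7% to 99.9% of the family's RPM in each of the 6 libraries, and miR-34c-5p alone gave 89.7% to 93.1%. It stood 29th among the 1528 annotated entries by mean RPM over the 6 libraries, next to miR-22-3p and miR-125a-5p. A miRNA known to be induced by p53 was among the abundant annotated ones in both genotypes, through one arm of one hairpin. The 5 members with a matched sequence were 21 to 23 bases long, and RPM values of the arms are set side by side without correction for length.

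mmu-miR-34c-5p, the guide arm of Mir34c, had 3614, 3961 and 3485 RPM in control replicates 1, 2 and 3 and 3090, 3351 and 2124 RPM in the same-numbered knockout libraries. All 3 knockout libraries lay below all 3 control libraries, and knockout replicate 3 was the lowest by a wide gap. For mmu-miR-34c-3p, the other arm of that hairpin, the control libraries held 99.5, 60.6 and 86.0 RPM and the knockout libraries 75.9, 65.0 and 39.7 RPM. Here the groups overlapped, with control replicate 2 below 2 of the knockout libraries.

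mmu-miR-34b-3p, by convention the passenger arm of Mir34b, was the second most abundant member. Its control libraries held 288, 243 and 297 RPM and its knockout libraries 191, 180 and 113 RPM, with no overlap between the groups. mmu-miR-34b-5p, which has the seed of miR-34a-5p, was rare. It had 2.88, 2.96 and 9.83 RPM in control libraries and 4.35, 4.52 and 1.63 RPM in knockout libraries. Most of its control mean came from control replicate 3, and the groups overlapped.

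mmu-miR-34a-5p, the member best known as a p53 effector, had 7.21, 11.8 and 5.53 RPM in control libraries and 8.08, 4.52 and 3.26 RPM in knockout libraries, with overlap. Pooled over a group, these were 35 and 27 steps, for which exact 95% Poisson intervals were 5.58 to 11.1 RPM and 3.41 to 7.53 RPM if a step is 1 read; they cover counting error only. For miR-34b-5p the pooled intervals were 3.52 to 8.18 and 2.04 to 5.45 RPM. miR-34a-3p was listed at 0 in 5 libraries and at 1.24 RPM in knockout replicate 1, the lowest value above 0 in that library. If a step is 1 read, 0 reads allow about 3 steps at the 95% level, up to 2.22 RPM in these libraries. The lowest value above 0 is 2 steps, so a listed 0 may also stand for 1 step, and the limit is then higher.

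**Figure D1:**
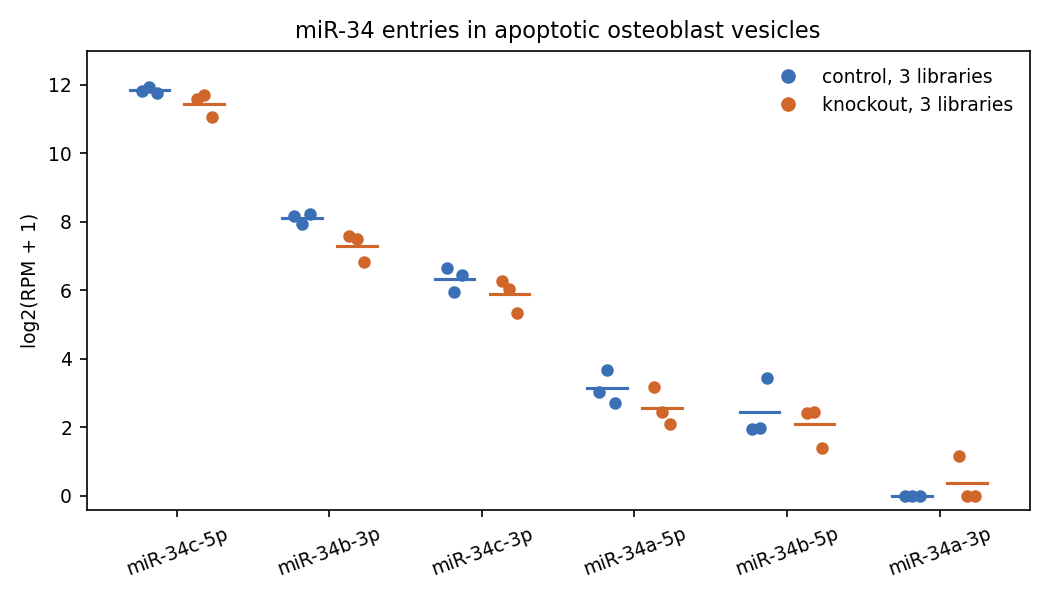
Level of each miR-34 entry as log2(RPM + 1), with 1 point per library (blue, 3 control libraries; orange, 3 knockout libraries) and a bar at each group's mean. miR-34c-5p stands above miR-34b-3p in every library, the groups do not overlap for these entries, and miR-34a-3p is at 0 in 5 of 6 libraries.

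In order of mean RPM the members were miR-34c-5p, miR-34b-3p, miR-34c-3p, miR-34a-5p, miR-34b-5p and miR-34a-3p. Neighbours were compared within libraries by an exact 2-sided paired permutation test over the 6 libraries, Benjamini-Hochberg adjusted over the 5 pairs. The pairs and their direction came from the mean RPM of these same libraries, so the p-values are not independent support for the order. miR-34c-5p exceeded miR-34b-3p by 3.94 ± 0.29 (SD, n = 6) on the log2(RPM + 1) scale, higher in 6 of 6 libraries (exact p = 0.03125, the smallest that 6 pairs allow, adjusted p = 0.0391). The same p-values and 6 of 6 libraries held for miR-34b-3p over miR-34c-3p (1.59 ± 0.24), and for miR-34c-3p over miR-34a-5p (3.25 ± 0.54). miR-34b-5p was also higher than miR-34a-3p in 6 of 6 libraries, with the same p-values, but as miR-34a-3p is at 0 in 5 of them the size of that difference is set by the pseudocount: 2.08 with 1 RPM, 2.80 with 0.5 and 0.80 with 5. miR-34a-5p and miR-34b-5p were the only neighbours that did not differ beyond their spread (0.58 ± 0.85, higher in 4 of 6 libraries, exact p = 0.1875, adjusted p = 0.1875). They were equal in knockout replicate 2, at 4.52 RPM, and miR-34a-5p was the lower in control replicate 3. The 6 libraries span both genotypes, and the order of the first 3 members was the same in each library.

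The neighbouring hairpins of chromosome 9 carried opposite arms. From Mir34c the 5p arm prevailed, with 36.3 to 65.3 times the RPM of the 3p arm, and from Mir34b the 3p arm prevailed, with 30.2 to 100.0 times the RPM of the 5p arm. As mean log2((5p RPM + 1)/(3p RPM + 1)) over 6 libraries, these were 5.53 ± 0.31 for Mir34c and -5.43 ± 0.55 for Mir34b. Of 214 hairpins with both arms tested, 97 had more of the 5p and 117 more of the 3p arm; 19 had a ratio at or above that of Mir34c, itself included, and 20 one at or below that of Mir34b, itself included. Both hairpins thus lay towards the ends of this distribution, on opposite sides. The added 1 RPM holds the ratio near 0 where both arms are rare, and only 36 hairpins averaged at least 10 RPM in each arm. Mir34c was among these and Mir34b was not. Some hairpins were more one-sided, such as let-7i (10.3) and miR-27b (-10.4). Where Mir34b and Mir34c lie among hairpins of their own level was not tested. The seed that miR-34b-3p and miR-34c-3p share came mostly from Mir34b, at 2.52 to 4.01 times the RPM of miR-34c-3p.

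**Figure D2:**
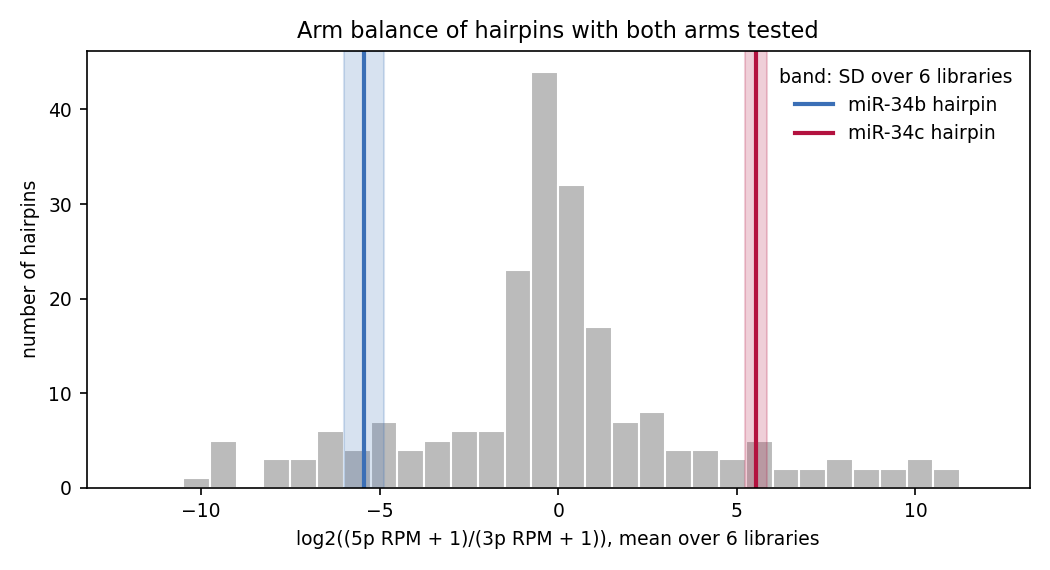
Number of hairpins (vertical axis) by the mean log2 ratio of 5p to 3p RPM over 6 libraries (horizontal axis), for the 214 hairpins with both arms tested. Lines mark Mir34b at -5.43 and Mir34c at 5.53, on opposite sides, and bands give the SD over 6 libraries.

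Whether Sirt6 loss shifted the arm balance was tested with limma over the 214 hairpins. For Mir34c the log2 ratio of 5p to 3p was 5.50 in control and 5.57 in knockout libraries, a difference of 0.07 ± 0.46 (SE, limma adjusted p = 0.978). For Mir34b it was -5.65 and -5.21, a difference of 0.44 ± 0.53 (limma adjusted p = 0.862). The 5p arm of Mir34b had only 3 to 16 steps in a library, with the 16 in control replicate 3. Its difference was 0.40 with a pseudocount of 0.5 and 0.57 with 5. With so rare an arm, a shift in the balance of Mir34b cannot be decided. Called hairpins made up 0% of the 214 in this fit.

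The genotypes were then compared entry by entry with limma on log2(RPM + 1), over the 1114 entries with at least 1 RPM in at least 3 libraries; 5 of the 6 members were tested, and miR-34a-3p was not. None of the 5 passed an adjusted p of 0.05 (limma, 0 higher and 0 lower), against 2.69% of all tested entries called lower and 2.15% called higher; 1 of 5, miR-34b-3p, was lower at an unadjusted p under 0.05, against 14.6% of all tested entries. miR-34b-3p averaged 276 ± 28.9 RPM over the controls and 161 ± 42.0 RPM over the knockouts (SD, n = 3 libraries each), a log2 fold change of -0.80 ± 0.30 (SE, limma adjusted p = 0.0901). miR-34c-5p had 3687 ± 246 and 2855 ± 646 RPM, a log2 fold change of -0.39 ± 0.30 (limma adjusted p = 0.529). The values of the others were -0.46 ± 0.34 for miR-34c-3p (limma adjusted p = 0.518), -0.56 ± 0.60 for miR-34a-5p (0.671) and -0.37 ± 0.68 for miR-34b-5p (0.794). In this fit limma's prior degrees of freedom, the weight given to the trend over all entries, were infinite. The standard error therefore follows that trend, and a single entry's own spread enters it only as part of the trend.

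The fold changes of all 5 were below 0, and their median was -0.46. Over all tested entries the median was -0.27 and 60.1% lay below 0. For the 159 ordinary annotated miRNAs at or above a mean of 50 RPM, where the 3 abundant arms lie, the median was -0.65 and 83.6% lay below 0; this minimum was chosen after the values were seen. The groups did not overlap for 2 of the 5, miR-34b-3p and miR-34c-5p, against 19.3% of all tested entries and 67.9% of those 159 with the knockout below the control. A lower value in the knockout was therefore the usual state of an annotated miRNA at these levels. The family's total went from 4059 ± 202 to 3086 ± 706 RPM, a log2 ratio of -0.40, and its controls and knockouts did not overlap. From vesicle pools, fewer vesicles that carry a miRNA and less of it in each cannot be told apart.

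**Figure D3:**
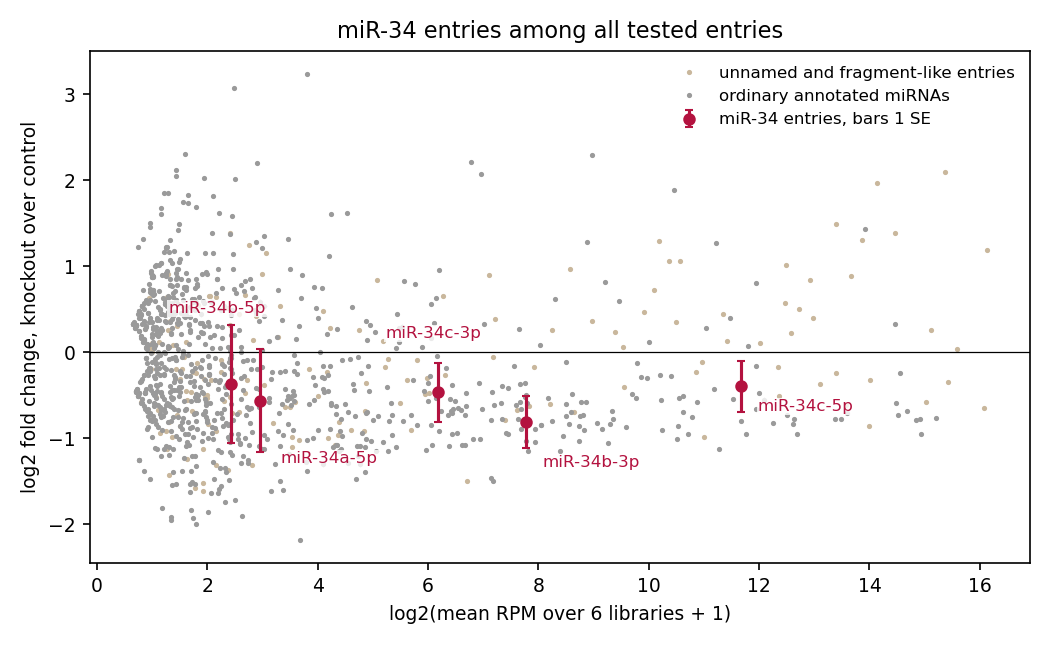
Log2 fold change of knockout over control (vertical axis) against log2(mean RPM + 1) (horizontal axis) for the 1114 tested entries, with the 5 tested miR-34 entries in red and bars of 1 SE. All 5 lie below 0, from -0.37 for miR-34b-5p to -0.80 for miR-34b-3p, among other annotated miRNAs that mostly lie below 0 at a high mean.

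These values moved with the total that reads were scaled to. With ordinary annotated miRNAs as the total, all tested entries shifted upward, their median from -0.27 to 0.070, and limma called 34 higher and 1 lower in place of 24 and 30. Per 1000000 reads of ordinary annotated miRNAs, miR-34c-5p had 6815, 8247 and 7232 reads in control libraries and 8112, 8214 and 7056 reads in knockout libraries, so that the groups overlapped. Its log2 fold change on that scale was 0.070 ± 0.18 (limma adjusted p = 0.863), the opposite sign, and that of the family's total was 0.042. On the same scale miR-34b-3p had 544, 507 and 617 reads in control libraries and 501, 440 and 376 reads in knockout libraries. It was still lower in every knockout library, though the nearest libraries of the groups were 507 and 501, and its log2 fold change was -0.34 ± 0.19 (limma adjusted p = 0.425). The share of all entries without overlap was not counted on this scale, so that trait cannot be called particular to miR-34b-3p. miR-34c-3p was at -0.01 ± 0.24, miR-34a-5p at -0.18 ± 0.54 and miR-34b-5p at -0.01 ± 0.71. Across RPM, median centring, quantile normalization and both rescalings, miR-34b-3p was below 0 in each, from -0.80 to -0.30.

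**Figure D4:**
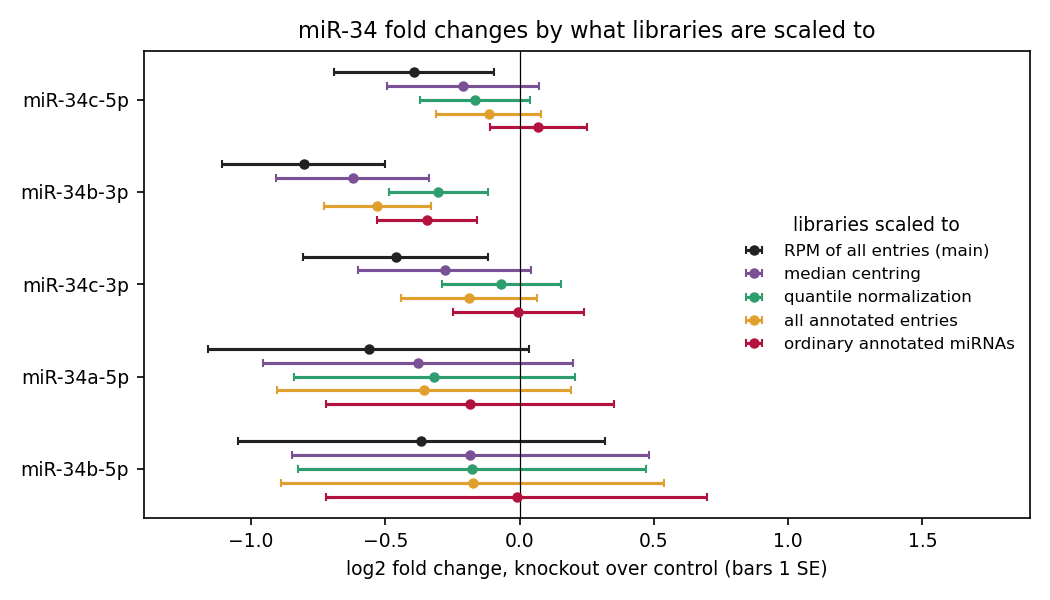
Log2 fold change of knockout over control (horizontal axis, bars 1 SE) of the 5 tested miR-34 entries under 5 scalings of the libraries, by colour. miR-34b-3p stays between -0.80 and -0.30, whereas miR-34c-5p goes from -0.39 in RPM to 0.070 with ordinary annotated miRNAs as the total.

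Ratios between members do not depend on the scaling of a library, apart from the added 1 RPM. For the 3 abundant arms, the 3 ratios were compared between the genotypes by permuting the library labels exactly, 2-sided, where 3 against 3 libraries cannot go below 0.1; the ratios were chosen after the values were seen. The log2 ratio of miR-34b-3p to miR-34c-3p was 1.76 ± 0.23 in control and 1.42 ± 0.09 in knockout libraries, with no overlap (SD, n = 3 each, exact permutation p = 0.1, adjusted p = 0.3 over the 3 ratios). That of miR-34b-3p to miR-34c-5p was -3.74 ± 0.25 and -4.15 ± 0.12, where control replicate 2 reached the knockout range (exact permutation p = 0.2, adjusted p = 0.3). That of miR-34c-5p to miR-34c-3p was 5.50 ± 0.45 and 5.57 ± 0.21 (exact permutation p = 0.8, adjusted p = 0.8).

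Knockout replicate 3 was the lowest library for 5 of the 6 members, and it also had the largest share of numeric-ID entries, 62.8%. Without it miR-34b-3p had a log2 fold change of -0.57 (limma adjusted p = 0.0746) and miR-34c-5p of -0.19 (limma adjusted p = 0.626); the part of that share in these values was not tested. Without control replicate 3, miR-34b-5p turned to 0.12.

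Among annotated entries averaging 100 RPM or more, those whose log2(RPM + 1) followed miR-34c-5p most closely over the 6 libraries were let-7g-5p (Pearson's r = 0.992), let-7i-5p (0.989), miR-152-3p (0.986), miR-30d-5p (0.979) and let-7d-5p (0.979). Libraries share their total, and the median r over the 127 candidates was 0.903, so a high r was common. miR-34b-3p, from the same locus, had an r of 0.881 with miR-34c-5p and stood 80th of the 127. Both neighbours of miR-34c-5p in the order of levels had a higher mean than it in control and a lower one in knockout libraries. miR-22-3p averaged 4541 ± 600 RPM over the controls and 2454 ± 846 RPM over the knockouts and was called lower (-0.95 ± 0.30, limma adjusted p = 0.0378), a call lost with any library left out. miR-125a-5p averaged 4138 ± 849 RPM over the controls and 2357 ± 339 RPM over the knockouts and, like miR-34c-5p, was not called (-0.80 ± 0.30, limma adjusted p = 0.0850). The difference between these fold changes and that of miR-34c-5p was not tested.

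The other miRNAs tied to p53 were read from a list of 29 names: miRNAs that p53 induces, whose processing it aids, or that act on it. Of these 25 were listed and 23 tested; 6 were called lower and 0 higher (limma), against 2.69% and 2.15% of all tested entries, and the median was -0.31, beside -0.27 over all. Among the 6 were miR-29a-3p, which targets collagen mRNAs (-1.12, limma adjusted p = 0.00664), miR-149-5p (-1.15, 0.00803) and miR-107-3p, hosted in an intron of the pantothenate kinase gene Pank1 (-1.13, 0.0378). The rest were miR-22-3p (-0.95, limma adjusted p = 0.0378), miR-143-5p (-1.01, 0.0456) and miR-145a-3p (-0.89, 0.0457). The other listed arms of these hairpins were not called. Above 0 lay miR-145a-5p (0.11, mean 1033 RPM against 569 for its called arm) and miR-107-5p (0.34, 129 against 61.7). Below 0 lay miR-143-3p, miR-22-5p (-0.99) and miR-149-3p (-0.16). Apart from miR-143-3p, these other arms are named after their values were seen. Each of the 6 called entries averaged at least 61.7 RPM. With only entries of a mean of at least 10 RPM tested, 8 of the list and 20% of all 355 entries were called lower. For ordinary annotated miRNAs at or above a mean of 50 RPM, the median was -0.65. Whether the list differed from entries at its own level was not tested. Without control replicate 1, 2 or 3, 0 of the list were called, but of all tested entries 0.269%, 0% and 0% were then called lower. After rescaling to annotated or to ordinary annotated miRNAs, 0 were called as well, against 0.449% and 0.0898% of all tested entries. miR-143-3p, the most abundant of the list and a smooth muscle and mesenchymal miRNA, averaged 39837 ± 336 RPM over the controls and 22459 ± 9744 RPM over the knockouts (-0.94 ± 0.35, limma adjusted p = 0.0858). The classical p53-induced miR-192-5p (-0.59), miR-194-5p (-0.04) and miR-215-5p (0.16) did not pass either, with limma adjusted p of 0.252, 0.949 and 0.818; they are named after their values were seen.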

How the data were processed

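Small RNA of 6 vesicle libraries was analysed, 3 per genotype, grouped by the sample labels. The authors deposited 1 table of RPM values, 1 column per library. fastp and edgeR are named, per the submitters' processing notes, without role or version; the aligner, the miRNA annotation and the build were not given in the sources used here. RPM is relative to all listed entries, so a rise of abundant entries lowers the rest. All values above 0 were whole multiples of a step, the lowest being 2 steps (tolerance 0.001 step); that a step is 1 read is not stated, so count models were not run.

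The whole table was fitted on log2(RPM + 1), which understates changes of low entries, by limma 3.58.1 (R 4.3.3) with its trend option, 2-sided, with Benjamini-Hochberg adjustment over all tested entries and a threshold of 0.05. Arm ratios were fitted without the trend. The scripts were tested on simulated data. Named entries are the members, their neighbours in level, the 5 most similar entries, and called or the 3 most abundant p53-linked entries; others are marked as chosen after their values were seen. The members and lists were chosen with earlier results of these data known. Sequences are from RefSeq (GRCm38.p6) and gene models from GENCODE M21. Alternatives covered pseudocount, filter, scaling, spread model, replicate block and each library left out.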

Additional observations from a re-analysis of the deposited data

How the results depend on the processing

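With only entries of a mean of at least 10 RPM tested, 1 of 3 tested members was called lower, miR-34b-3p (-0.80, limma adjusted p = 0.0405), beside 71 of the 355 entries then tested. The other 16 of 17 alternatives called 0 members, which says little of stability: of all tested entries they called at most 2.51% lower, and 0 of 1114 in either direction without the trend or without control replicate 3. Rescaling to ordinary annotated miRNAs turned miR-34c-5p to 0.070 and the log2 ratio of the family's total to 0.042. miR-34b-5p ranged from -0.62 to 0.12 with a library left out, above 0 without control replicate 3. With a library left out, the total's log2 ratio ranged from -0.52 to -0.22. The difference in arm balance between the genotypes then ranged from 0.15 to 0.87 for Mir34b and from -0.10 to 0.32 for Mir34c. This difference of Mir34c turned sign without control replicate 1 (-0.10), control replicate 3 (-0.02) and knockout replicate 3 (-0.0012). With 5 libraries the exact paired permutation test of neighbouring levels cannot pass (smallest p = 0.0625): the log2 differences ranged from 3.89 to 4.02, 1.51 to 1.65, 3.16 to 3.45, 0.36 to 0.85 and 1.81 to 2.25 down the order. The 6 lower calls of the p53-linked list became 2 with a pseudocount of 0.5, 2 with no filter, 2 with median centring, 3 with quantile normalization, 0 with either rescaling and 0 without the trend, while all lower calls went from 30 to 15, 15, 8, 16, 5, 1 and 0; with a library left out, 0 to 3 were lower and 0 to 1 higher. The cause of these changes was not tested.

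Same-numbered libraries of the genotypes did not deviate together over all tested entries (r = 0.01, -0.02 and 0.01). This gave no sign of pairing by number, but it cannot exclude a shared culture or preparation. With the replicate number as a block, 0 members passed (miR-34b-3p, limma adjusted p = 0.143), 2 of the p53-linked list were lower, beside 11 of 1114 entries, and the differences in arm balance (0.44 for Mir34b, 0.07 for Mir34c) cannot change by construction. The planned count models were not run. Depth limits miR-34a and miR-34b-5p.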
